A study of Homo sapiens with 18 samples.

Results

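The long arm of chromosome 1 (1q) was examined in wild type (WT) and USB1 mutant human cells. A gene was a member when it lay on chromosome 1 with a GRCh38 start at or beyond position 143000000, was not an S100 gene, and averaged at least 1 TPM (a level scaled by transcript length and library) over the 6 libraries of a day. On any day 792 genes met the rule, of 1594 identifiers in the region without the 19 S100 genes and 35168 identifiers in all. The rule held for 668, 637 and 665 genes at D0, D16 and D30, and for 533 on all 3 days. It used position and level only, so the genotype difference played no part in it, although the arm was picked for study with earlier results of these data known.

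The cells were the H1 human embryonic stem cell (hESC) line, either WT or carrying the frameshift c.531delA in USB1, whose protein trims the 3′ ends of small RNAs such as U6. The mutation was made with CRISPR/Cas9 and colonies were picked by hand, but the number of clones behind the mutant libraries is not given in the sources used here. Total RNA was sequenced with 3 libraries per genotype on day 0 (D0, undifferentiated hESCs), day 16 (D16, CD34+/CD45+ hematopoietic progenitors in the study's description) and day 30 (D30, mature blood cells), 18 in all. By the labels, the 2 groups of a day differed in USB1 only.

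A chromosome arm carries genes of unrelated function that share a DNA molecule. A gain or loss of a whole arm changes the dose of all of them at once, and 1q is among the segments most often gained in cultured human pluripotent cells and in blood cancers. Genes such as MCL1, a survival factor, and MDM4, an inhibitor of p53, lie on it beside histone clusters, Fc receptor and SLAM receptor genes and the complement regulators. DNA copy number was not measured in the files used here. The study karyotyped both WT and USB1 mutant hESCs by G-banding, and its text reports a normal karyotype for the mutant.

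Library totals ran from 4125125 to 19368927 counts. USB1 RNA did not separate the genotypes, with log2 fold changes of 0.11, −0.09 and −0.24 at D0, D16 and D30 and adjusted p-values of 0.623, 0.668 and 0.432, so this frameshift cannot be checked by level. Markers of hESCs summed to 3600 to 4371 TPM in the D0 libraries and to 71.9 TPM or less afterwards. Progenitor markers, CD34 and PTPRC among them, summed to 871 to 1190 TPM at D16. The differentiated samples held markers of several cell types, and their sums differed between genotypes. Erythroid markers summed to 1003 to 1865 TPM in WT and 2411 to 4141 TPM in mutant libraries at D16, and to 32186 to 39138 and 95731 to 122025 TPM at D30. Mast cell or eosinophil markers summed to 20724 to 41906 TPM in WT and 4809 to 6823 TPM in mutant libraries at D16. In bulk RNA, fewer cells of a type and less RNA per cell cannot be told apart.

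Promoters of 4 members are shown because these genes represent both behaviours described here, and DAP3 and ENSA were chosen after their values were seen. SYT11 and H2BC26 had a log2 fold change, mutant over WT, at or above 0 on every day, and DAP3 and ENSA lay closest to the arm's median shift. The genotypes overlapped for H2BC26 at D0 and D16 and for SYT11 at D30. The sequences are RefSeq's, GRCh38.p14, from 250 bases before to 50 bases after RefSeq's gene start, written 5′ to 3′ on the gene's strand. Capitals mark a match on either strand to the CCAAT box or to the GC box, spelled GGGCGG. The TATA box, spelled TATAAA, was searched as well and was absent from all 4, as was the GATA factor motif, spelled AGATAA. RefSeq's start of DAP3 lies inside the gene as given by the annotation used for positions, downstream of its start there. The windows are chr1:155859317-155859616 (plus strand), chr1:228457853-228458152 (plus), chr1:155688841-155689140 (plus) and chr1:150629563-150629862 (minus), in this order:
SYT11: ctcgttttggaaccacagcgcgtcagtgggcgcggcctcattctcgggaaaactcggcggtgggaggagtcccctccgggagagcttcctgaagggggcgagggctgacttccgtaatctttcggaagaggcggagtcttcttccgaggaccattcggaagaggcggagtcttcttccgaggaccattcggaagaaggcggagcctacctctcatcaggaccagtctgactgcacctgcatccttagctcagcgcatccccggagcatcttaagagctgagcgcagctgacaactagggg
H2BC26: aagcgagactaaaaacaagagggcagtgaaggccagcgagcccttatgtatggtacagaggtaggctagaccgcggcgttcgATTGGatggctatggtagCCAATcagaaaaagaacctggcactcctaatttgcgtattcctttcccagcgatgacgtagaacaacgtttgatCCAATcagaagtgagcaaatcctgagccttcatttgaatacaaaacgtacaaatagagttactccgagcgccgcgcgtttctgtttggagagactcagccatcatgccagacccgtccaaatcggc
DAP3: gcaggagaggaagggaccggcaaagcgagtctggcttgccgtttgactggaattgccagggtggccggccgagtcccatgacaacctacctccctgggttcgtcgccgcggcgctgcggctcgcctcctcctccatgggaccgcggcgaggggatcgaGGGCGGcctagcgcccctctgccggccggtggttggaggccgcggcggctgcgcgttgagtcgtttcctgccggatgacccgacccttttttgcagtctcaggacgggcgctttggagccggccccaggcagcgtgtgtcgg
ENSA: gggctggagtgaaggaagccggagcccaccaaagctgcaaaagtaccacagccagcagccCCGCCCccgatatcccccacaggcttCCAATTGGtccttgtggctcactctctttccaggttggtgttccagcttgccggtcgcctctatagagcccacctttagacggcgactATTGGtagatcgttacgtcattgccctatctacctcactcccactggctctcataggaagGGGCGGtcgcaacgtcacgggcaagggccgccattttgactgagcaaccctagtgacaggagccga
The SYT11 window held none of the 4 motifs, that of H2BC26 held the CCAAT box at 3 places, that of DAP3 held the GC box once, and that of ENSA held 5 matches. In ENSA a CCAAT box overlaps another on the opposite strand. Among 27305 promoters of this length, 35.7% held the CCAAT box, 44.6% the GC box, 11.95% the TATA box and 10.5% the GATA motif. For 584 members with a promoter entry the shares were 39.0%, 62.3%, 8.73% and 7.71%. These are matches of letters and describe the windows only.

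The mutant libraries held less RNA from 1q than the WT libraries on all 3 days. Members made up 4.43, 4.04 and 3.98% of all TPM in the WT libraries at D0 and 3.43, 3.58 and 3.61% in the mutant libraries. The shares were 5.21, 5.58 and 5.38% against 4.25, 4.22 and 4.03% at D16, and 4.42, 4.54 and 5.06% against 2.64, 3.12 and 3.01% at D30. On each day the highest mutant library lay below the lowest WT library. A share of TPM depends on the most abundant transcripts. At D30 it moved together with the erythroid markers given above, whose part in it was not tested.

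A gene-wise measure showed the same order of genotypes. For each library the median log2 ratio to the WT mean of its day was taken over the members. At D0 it was 0.08, −0.04 and −0.03 in the WT and −0.15, −0.19 and −0.19 in the mutant libraries. At D16 the WT libraries were at 0.02, 0.01 and −0.01 and the mutant libraries at −0.46, −0.50 and −0.47. At D30 they were at −0.03, −0.06 and 0.10 against −0.38, −0.27 and −0.30. The genotypes did not overlap on any day. Over genes of the short arm (1p) in the same libraries the 18 medians lay between −0.02 and 0.05. The exact permutation test cannot go below a two-sided p of 0.10 with 3 libraries against 3, so no p is given for these medians.

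**Figure D1:**
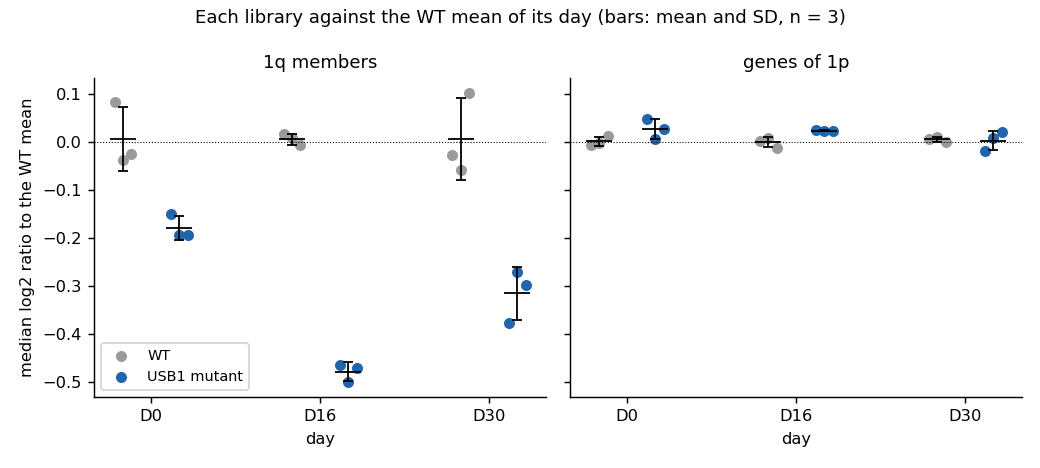
Each point is a library, and the y axis gives its median log2 ratio to the WT mean of the same day over the 1q members (left) or over genes of 1p (right); bars are mean and SD, n = 3. Mutant libraries lie below every WT library of their day for 1q, between −0.50 and −0.15, and within −0.02 to 0.05 for 1p.

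The gene-by-gene test (edgeR's quasi-likelihood test on expected counts, Benjamini-Hochberg adjusted over all genes tested, written padj, threshold 0.1) was run on 613, 611 and 629 members at D0, D16 and D30. Their median log2 fold change, mutant over WT, was −0.18 at D0, −0.50 at D16 and −0.32 at D30, while the median over all genes tested was 0.00, 0.01 and −0.01. Values were below 0 in 511 members at D0 (83.4%, against 49.9% of all genes tested), 525 at D16 (85.9%, against 48.7%) and 459 at D30 (73.0%, against 50.7%). For scale, a change from 3 to 2 copies of a gene would be −0.58 on the log2 scale and from 4 to 3 would be −0.42, if RNA followed copies. Both examples assume more than 2 copies in WT and serve for scale only. Copy number was not measured and its part in the shift was not tested.

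With genotype alone in the test, few members passed singly at D0 and most did at D16. At D0, 45 members were lower and 4 higher, against 1.87% and 1.07% of all genes tested. At D16, 336 were lower and 19 higher, where the background was 15.3% and 13.1%. At D30, 183 were lower and 45 higher, against 9.75% and 10.8%. As percentages, 7.34%, 54.99% and 29.1% of members were lower. More than 2-fold lower were 16, 79 and 49 members, against 1.01%, 5.07% and 3.26% of all genes. All 3 mutant libraries lay below all 3 WT libraries in 215 members at D0 (background 10.5%), 372 at D16 (19.5%) and 264 at D30 (18.2%). The opposite order occurred in 14, 22 and 64 (background 10.9%, 18.6% and 17.5%). Replicate numbers marked libraries that deviated together at D0, and with the number as a block 170 members were called there, 161 of them lower. How many of all genes passed with the block is not given here. Without WT replicate 2 the D0 count fell to 16, without mutant replicates 1, 2 or 3 to 26, 20 and 13, and the D30 count was 146, 136 and 105 without WT replicate 1, 2 or 3.

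The shift displaced the distribution, at D30 less so at its upper end. At D16 the quartiles of members were −0.79 and −0.20, and at D0 they were −0.32 and −0.06. At D30 they were −0.64 and 0.03, against −0.32 and 0.33 over all genes tested. The 95th percentile at D30 was 1.07 over members and 1.23 over all genes tested. Within 0.5 log2 units of the members' own median lay 90.5%, 72.3% and 65.0% of members at D0, D16 and D30, and 90.1%, 70.3% and 67.2% of all genes lay as close to theirs. The SD of the log2 fold change over members was 0.39, 0.71 and 0.82, and over all genes 0.41, 0.67 and 0.75. Members were spread about as widely as other genes, around a lower centre. The 583 protein-coding members at D0 had the same median as all members, −0.18. Gene types differed more later. At D16 the median was −0.49 over 578 protein-coding members and −0.79 over 33 of other types. At D30 it was −0.34 over 591 and −0.06 over 38. The 208 members that overlap a gene on the opposite strand had a median of −0.19 at D0 and the 339 that overlap no gene −0.18.

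Among the 41 arms with at least 20 genes tested, 1q had the lowest median on each day. The next lowest was 4q at D0 (−0.09), Xp at D16 (−0.12) and 4p at D30 (−0.13). In the other direction, 19p at D0 reached 0.14, 20p at D16 reached 0.29 and 16p at D30 reached 0.14. The short arm of the same chromosome stayed at 0.02 on all 3 days.

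**Figure D2:**
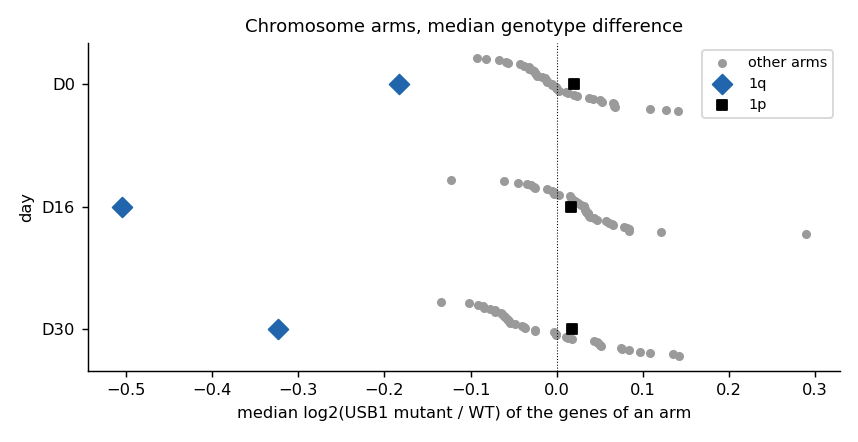
Each point is a chromosome arm with at least 20 genes tested and the x axis is the median log2 fold change of its genes, for D0, D16 and D30 from top to bottom (points are spread vertically only for legibility). The diamond for 1q, here with its S100 genes, lies at −0.18, −0.50 and −0.32, left of every other arm, and the square for 1p lies at 0.02.

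The shift was seen in every 10 Mb window. In these windows, counted from the start of the rule, all 11 medians were below 0 on each day. They ran from −0.27 to −0.09 at D0, from −0.58 to −0.37 at D16 and from −0.48 to −0.11 at D30. Elsewhere in the genome only 1 of 281 windows with at least 10 genes fell below the highest 1q window at D16, a window on chromosome 8, and 0 fell below the arm's median. At D0 and D30, 56 of 280 and 72 of 276 windows elsewhere were below the highest 1q window, and 3 and 4 were below the arm's median.

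No boundary was visible at D16, where the first window, beside the centromere, had a median of −0.54 (105 members, 61 lower) and the last, at the telomere, −0.51 (34 members, 19 lower). The window with the weakest shift at D16 was the third (−0.37, 37 members). Its 5 Mb parts differed. The part from 163 to 168 Mb was at −0.19 (17 members, 6 lower and 2 higher). That from 168 to 173 Mb, which holds DNM3, was at −0.52 (20 members). At D0 the weakest window was the second (−0.09, 138 members), which holds SYT11, LMNA and the Fc receptor genes. Windows were less even at D30. The last window stood at −0.11 with 8 of 35 members lower and 4 higher, and the seventh at −0.19 with 18 of 78 lower and 13 higher. In 5 Mb windows with at least 5 members the range at D30 widened to −0.79 to 0.02, the latter over 7 members at the telomere. Another 5 Mb window, at 228 to 233 Mb, was at −0.06 there with 8 of 39 members lower and 8 higher.

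**Figure D3:**
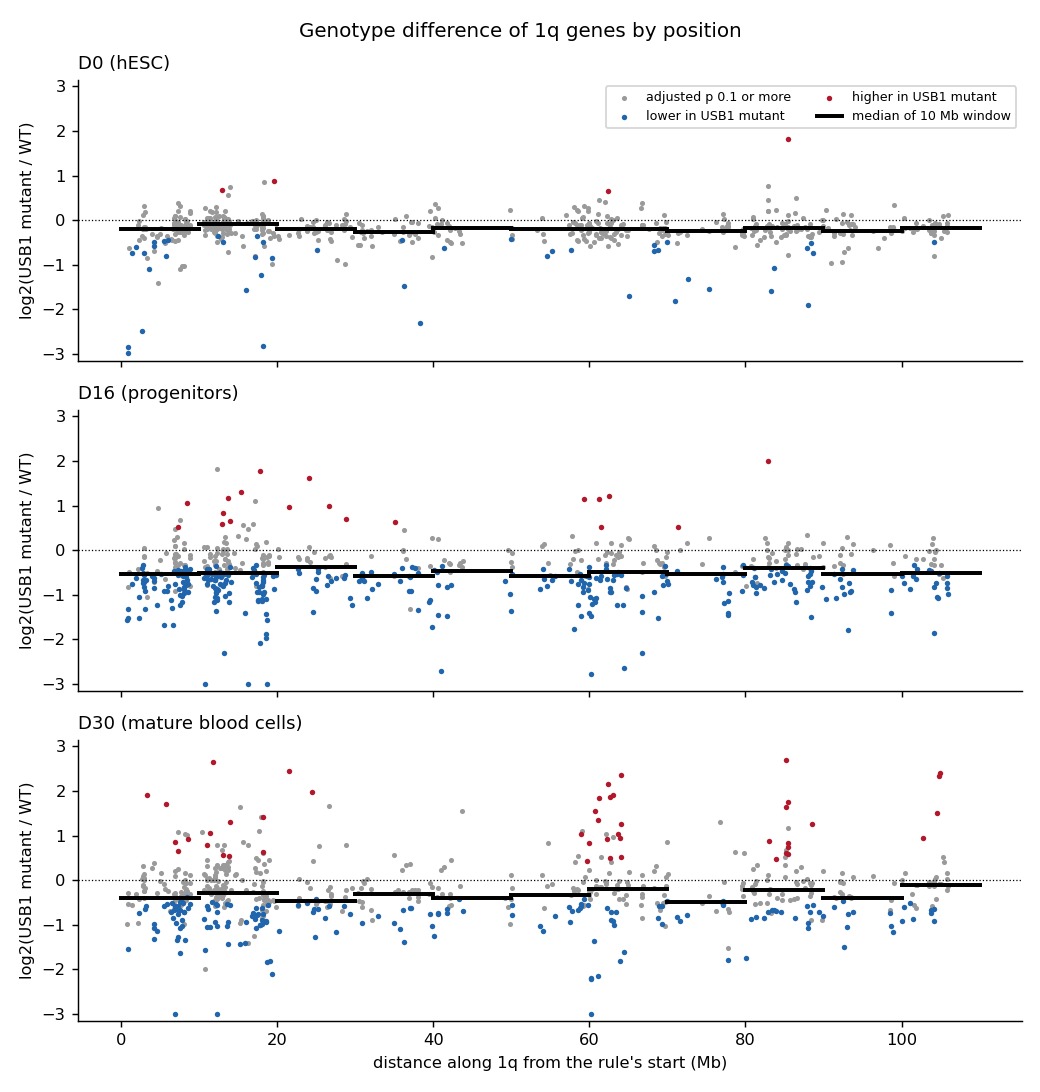
Each point is a member, the x axis is its distance in Mb from the start of the rule and the y axis its log2 fold change, mutant over WT, at D0, D16 and D30 from top to bottom. Black bars are the medians of 10 Mb windows, colours mark padj under 0.1, and 3 members at D16 and 3 at D30 beyond ±3 are drawn at −3. All 33 window medians lie below the dotted line at 0, and 10 of the 11 windows are lowest at D16.

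The shift varied little with expression level at D0 and more later. Between members and other genes of the same TPM class the medians differed by −0.20, −0.20, −0.21, −0.19 and −0.19 at D0 from the class of 1 to 3 TPM up to the class over 100 TPM. At D16 the differences were −0.41, −0.50, −0.47, −0.56 and −0.60 in the same order, and at D30 −0.15, −0.27, −0.35, −0.37 and −0.41. The later days thus showed a larger shift among abundant members. In the lowest class at D30 only 35 of 69 members were below 0, with an SD of 1.52 over members. By GC content of the gene the differences were −0.21 to −0.15 at D0, −0.60 to −0.38 at D16 and −0.39 to −0.23 at D30, without a steady order from low to high GC.

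**Figure D4:**
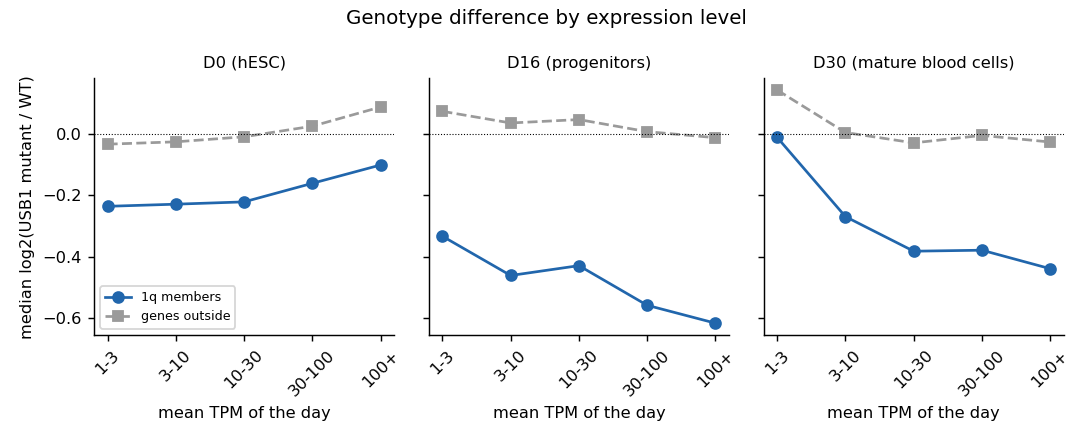
The y axis is the median log2 fold change of 1q members (circles) and of genes outside the region (squares) in classes of mean TPM (x axis) at D0, D16 and D30. The 2 lines run apart by −0.21 to −0.19 at D0, and by −0.41 to −0.60 at D16 and −0.15 to −0.41 at D30 as the level rises.

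Relative to other genes, the genotype difference of the arm was largest at D16. By the log2 ratio of mean TPM, without further scaling, the members' median was −0.31, −0.40 and −0.57 at D0, D16 and D30, largest at D30, but the median of all genes tested was itself at −0.12, 0.12 and −0.26. The differences between these medians were −0.19, −0.51 and −0.31. The share of all TPM parted most at D30, as given above. Over the 533 genes that were members on all 3 days, WT cells raised 1q genes from D0 to D16 by 0.40 log2 units more than the genes outside, and mutant cells by 0.10. From D16 to D30 WT cells lowered them by 0.22 relative to the outside, and in mutant cells the difference was −0.00. The genotype difference became more negative from D0 to D16 by a median of 0.24 and less negative from D16 to D30 by 0.20. These comparisons share libraries.

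Tests of the genotype-by-day difference (18 libraries in one fit) showed this for single members. From D0 to D16, 66 members became more negative and 15 less (of 541, background 3.75% and 3.86%). From D16 to D30, 46 became more negative and 114 less (of 593, background 10.2% and 10.3%). From D0 to D30 the counts were 52 and 42 (of 541, background 4.48% and 6.42%). The D0 to D16 total of 81 fell to 26, 5 and 42 without the libraries numbered 1, 2 or 3, that of D0 to D30 from 94 to 39, 24 and 34, and that of D16 to D30 from 160 to 85 and 56 without those numbered 1 or 2.

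DAP3 and ENSA lay near the arm's median on all 3 days. DAP3, a subunit of the mitochondrial ribosome (chr1:155687960-155739010, plus strand), measured 89.4, 86.6 and 113 CPM (counts scaled to the library's size) in WT and 69.5, 62.8 and 73.8 CPM in mutant libraries at D16 (log2 fold change −0.49 ± 0.14, padj = 0.0317; 0.125 without mutant replicate 2). ENSA, an inhibitor of protein phosphatase 2A in mitosis (chr1:150600851-150629612, minus strand), measured 241, 223 and 257 CPM against 169, 181 and 173 CPM (log2 fold change −0.46 ± 0.12, padj = 0.0215). Mutant libraries were below WT libraries at D16 in both, without overlap. ENSA was also lower in every mutant library at D0 (log2 fold change −0.25 ± 0.10, padj = 0.273; 0.0607 with the replicate block) and at D30 (log2 fold change −0.34 ± 0.15, padj = 0.160; 0.0451 in the 18-library fit). DAP3 had −0.15 ± 0.12 at D0 and −0.31 ± 0.14 at D30.

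By the rule for genes nearest the arm's median on a day, D16 gave the ubiquitin ligase gene RNF115 (−0.50, padj = 0.0145), the lysosomal scaffold subunit LAMTOR2 (−0.51, padj = 0.0215), the mitochondrial ribosomal protein MRPS21 (−0.51, padj = 0.0299) and the centromere protein CENPL (−0.50, padj = 0.0346). D0 gave PPP1R15B, which restores translation after stress, the histone H2AC20, CDC42SE1 and DEDD, all at −0.18 and none called. D30 gave ENSA and DAP3 again, the zinc finger gene ZBED6 (−0.30, padj = 0.181) and the oxygen sensor EGLN1 (−0.28, padj = 0.251). In the test day by day, these genes were called at D16 and not at D0 or D30. Their choice by fold change and SE largely sets this outcome, so it restates the size of the arm's median. Other fits differed for ENSA, which was called at D0 with the replicate block (padj 0.0607) and at D30 in the 18-library fit (0.0451). The calls of CENPL, MRPS21 and LAMTOR2 each ended under 1 alternative.

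Among members of at least 10 TPM that were lower on a day, the 4 with the smallest padj had larger falls than the arm. Choice by padj favours large falls, so this describes the genes chosen only. At D0 TRAF5, a signalling adaptor, fell from 34.99 ± 2.01 to 21.7 ± 0.366 CPM (log2 fold change −0.69 ± 0.10, padj = 0.0123). The chromatin remodeler CHD1L measured 91.8, 83.2 and 81.3 CPM in WT and 55.7, 55.9 and 58.97 CPM in mutant libraries at D0 (log2 fold change −0.59 ± 0.09, padj = 0.0147). NBPF15 (−0.73, padj = 0.0139) and the acyltransferase LPGAT1 (−0.67, padj = 0.0149) were the others, and NBPF15 belongs to a family of near-identical copies among which reads can be split. With transcript lengths as offsets the calls of NBPF15 and LPGAT1 were lost at D0, and that of LPGAT1 also in the 18-library fit (padj 0.304) and without mutant replicate 3 (0.104).

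At D16 the rule gave CHI3L1, SEMA4A, CD244 and NIBAN1. CHI3L1, a secreted chitinase-like protein of macrophages and neutrophils, measured 263, 368 and 255 CPM in WT and 33.9, 46.9 and 47.8 CPM in mutant libraries (log2 fold change −2.78 ± 0.19, padj = 6.63e-05). SEMA4A, a semaphorin of immune cells, fell from 143 ± 35.7 to 28.9 ± 2.68 CPM (log2 fold change −2.31 ± 0.18, padj = 8.74e-05). CD244, a SLAM family receptor, had −2.08, padj = 0.000184, and NIBAN1, a stress response gene, −1.47, padj = 0.000224. At D30 CHI3L1 fell again, from 2289 ± 364 to 499 ± 45.9 CPM (log2 fold change −2.20 ± 0.19, padj = 0.00133), with ADAMTSL4 (−1.62, padj = 0.00160), the laminin chain LAMC1 (−1.26, padj = 0.00195) and the metalloprotease ADAM15 (−0.94, padj = 0.00438). No WT library of these 7 genes of D16 and D30 was as low as a mutant library on the day named, which choice by padj favours. This order held in 60.9% of members and 19.5% of all genes at D16, and in 42.0% and 18.2% at D30.

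To find members that left the shift, each gene was also tested against the median of its own arm. At D0, 7 members were higher than the arm and 17 lower (background 0.808% and 1.47% of all genes against their arms). At D16, 85 were higher and 97 lower (11.6% and 14.3%), and at D30, 91 were higher and 65 lower (10.7% and 8.64%). As percentages of the members tested, 1.14%, 13.9% and 14.5% were higher than the arm and 2.77%, 15.9% and 10.3% lower, each within 2 times the background. The D0 total of 24 was 62 with the replicate block, 7 without WT replicate 2 and 8 without mutant replicate 3. The D16 total of 182 was 100 and 90 without WT replicates 1 or 2 and 121, 118 and 109 without mutant replicates 1, 2 or 3. The D30 total of 156 was 89, 80 and 79 without WT replicates 1, 2 or 3.

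Of 511 members tested on all 3 days, 304 (59.5%, against 14.01% of 10983 other genes) were below 0 each time and only 5 (0.978%, against 18.4%) were at or above 0 each time. These 5 were SYT11, PEAR1, DNM3, H2BC26 and CFHR2. The rule for named genes gave SYT11 and H2BC26, and the others, below 5 TPM on some day, are named after their values were seen.

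SYT11, a synaptotagmin that acts in vesicle traffic (chr1:155859567-155885199, plus strand), was the 1 member of 511 higher than the arm on all 3 days (0.196%, against 0.137% of other genes relative to their own arms). It measured 25.5, 24.7 and 28.1 CPM in WT and 45.03, 36.8 and 43.7 CPM in mutant libraries at D0 (log2 fold change 0.69 ± 0.11, padj = 0.0207). At D16 the values were 18.3, 28.99 and 25.6 against 37.1, 35.5 and 37.98 CPM (log2 fold change 0.59 ± 0.17, padj = 0.0328). At D30 they were 23.2, 19.4 and 14.03 against 21.1, 39.01 and 30.9 CPM (log2 fold change 0.69 ± 0.27, padj = 0.127). Mutant libraries lay above WT at D0 and D16 and overlapped at D30, where mutant replicate 1 was among the WT values. Its distance above the arm was 0.88, 1.08 and 0.99 log2 units (arm padj 0.00845, 0.00213 and 0.0459). The D0 call against WT was lost without WT replicate 2 or mutant replicate 3 (padj 0.139 and 0.129) and in the 18-library fit (0.228), and the D16 call without WT replicate 1 (0.110). At D30 a call was gained with DESeq2 (padj 0.0779), in the 18-library fit (0.0292) and without mutant replicate 1 (0.0404).

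At D16 the nearest tested neighbours of SYT11 were GON4L at −0.60 (padj = 0.00622), RIT1 at −0.55 (padj = 0.0230), KHDC4 at −0.09 and, 171.6 kb away, DAP3 at −0.49. At D0 RIT1 and KHDC4 were at −0.38 and −0.21. At D30 GON4L, RIT1 and KHDC4 were at −0.19, −0.39 and 0.28, none called. All of these lay within the same 10 Mb window. KHDC4, a splicing factor, was itself higher than the arm on 2 days.

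H2BC26, a histone H2B gene outside the main histone clusters (chr1:228458103-228463104, plus strand), measured 35.98, 22.2 and 27.9 CPM in WT and 30.8, 30.97 and 31.1 CPM in mutant libraries at D0. At D16 it measured 14.8, 17.9 and 22.2 against 16.5, 19.5 and 19.8 CPM, with the genotypes overlapping on both days. At D30 the values were 12.2, 9.48 and 8.64 against 21.1, 15.4 and 16.9 CPM, without overlap (log2 fold change 0.83 ± 0.22, padj = 0.0422; 0.138 without WT replicate 2 and 0.147 without WT replicate 3). It stood above the arm at D16 (0.51, arm padj = 0.0710) and D30 (1.13, arm padj = 0.0142). Its fold change at D16, 0.02 ± 0.18, turned below 0 when single libraries were left out. Nearby, H2AC25 was at 1.75 (padj = 0.00160) and RNF187 at 0.74 (padj = 0.0293) at D30, while at D16 RNF187 was at −0.10. Histone genes have near-identical copies and reads can be split among them.

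**Figure D5:**
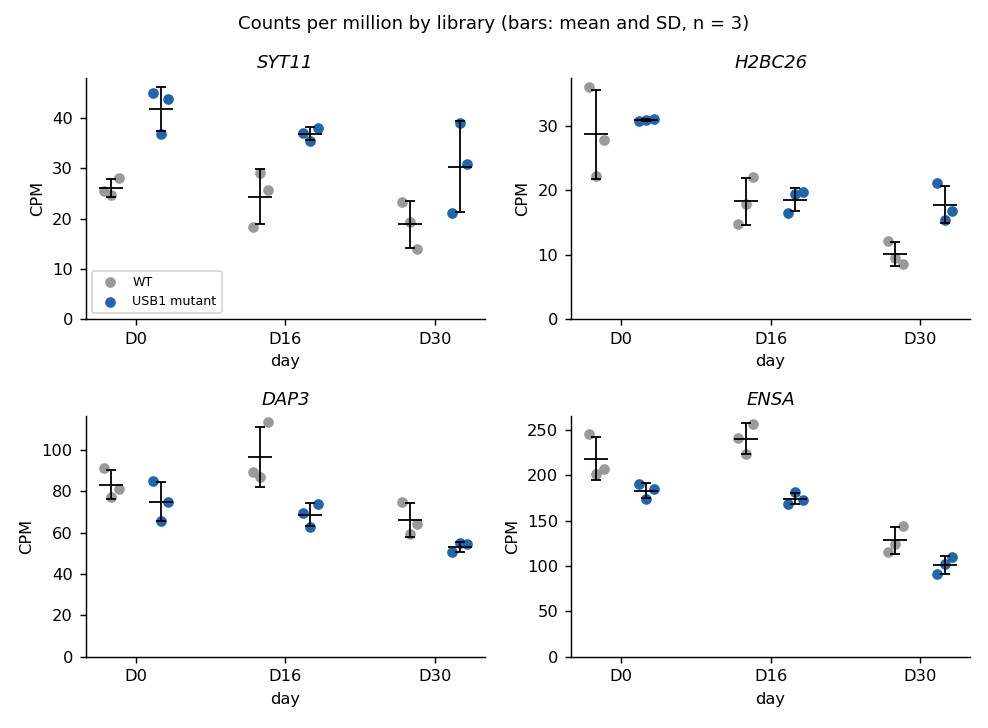
CPM (y axis, from 0) in every library of SYT11, H2BC26, DAP3 and ENSA by day, WT in grey and USB1 mutant in blue; bars are mean and SD, n = 3. SYT11 mutant libraries lie at 36.8 to 45.03 CPM at D0 against 24.7 to 28.1 in WT, whereas ENSA mutant libraries lie at 169 to 181 CPM at D16 against 223 to 257 in WT.

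PEAR1, a receptor of platelets and endothelium, rose at D16 from 17.2 ± 1.79 to 27.01 ± 1.87 CPM (log2 fold change 0.64 ± 0.14, padj = 0.0111) and at D30 from 1.43 ± 0.354 to 3.56 ± 0.411 CPM (log2 fold change 1.31 ± 0.36, padj = 0.0452). Its D16 call was lost with transcript lengths as offsets (padj 0.401), and its D30 call without WT replicate 1 or 2. At D0 it had 0.75, padj = 0.215 (0.0877 with the replicate block). DNM3, a dynamin of megakaryocytes and neurons, measured 17.5, 21.2 and 21.02 CPM in WT and 33.1, 34.7 and 30.1 CPM in mutant libraries at D16 (log2 fold change 0.71 ± 0.14, padj = 0.00650), and had 0.15, padj = 0.696 at D0 and 0.80, padj = 0.138 at D30. In the 18-library fit DNM3 had padj 0.0192 at D30, and 0.0908 with transcript lengths as offsets. The hairpins of MIR199A2 and MIR214 lie inside DNM3 on the opposite strand. These libraries do not measure miRNAs, and without a statement that counting used strand, reads of DNM3 and its antisense transcript cannot be told apart. PIGC, which overlaps DNM3, and SUCO beside it were at −1.08 and −1.23 at D16. CFHR2, a complement factor H-related gene with near-identical relatives, lay between 0.05 and 0.12 and was called on no day.

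Counting members higher than the arm on at least 2 days gave 25 of 511 (4.89%, against 1.99% of other genes relative to their own arms). They lay in 7 of the 11 windows with at most 6 in one window. Chosen after their values were seen, those high at D16 besides the genes above included PLEKHA6 (1.16 and 1.84 at D16 and D30), UBE2T, SELENBP1, PRPF3 and PIK3C2B. PRPF3, a U4/U6 snRNP component, measured 46.7, 48.6 and 57.5 CPM in WT and 72.2, 75.5 and 71.2 CPM in mutant libraries at D16 (log2 fold change 0.52 ± 0.13, padj = 0.0164), and 51.04, 50.6 and 50.8 against 84.2, 78.1 and 77.4 CPM at D30 (log2 fold change 0.65 ± 0.12, padj = 0.0128). At D0 PRPF3 was at −0.10, padj = 0.677 (arm padj 0.757). The rest of the 25 included the lamin gene LMNA and the exon junction protein RBM8A.

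By distance above the arm, the rule named 6 members per day. At D16 these included LEFTY1, UBE2T, SELENBP1, SELP and DNM3. UBE2T, an E2 enzyme of DNA crosslink repair, rose from 7.27 ± 2.05 to 16.2 ± 2.05 CPM (log2 fold change 1.14 ± 0.22, padj = 0.00515), SELENBP1, which is abundant in red cells, had 1.05, padj = 0.00913, and SELP, the platelet adhesion receptor, 0.998, padj = 0.00844. LEFTY1, an inhibitor of Nodal, ran from 0.718 to 5.51 CPM in WT and is given as unstable (2.00, padj = 0.0159). Several of these genes belong to erythroid cells or platelets, and erythroid markers were higher in mutant libraries at D16 as given above. Their part in these differences was not tested.

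At D30 they included OR2W3, C1orf116, TRIM58, KLHDC8A and RHEX. TRIM58, a ubiquitin ligase of late erythroblasts, measured 103, 46.00 and 53.7 CPM in WT and 505, 266 and 244 CPM in mutant libraries (log2 fold change 2.33 ± 0.37, padj = 0.00699). RHEX, which acts in erythropoietin signalling, measured 19.7, 18.8 and 23.1 against 32.2, 79.9 and 123 CPM (log2 fold change 1.92 ± 0.41, padj = 0.0195). C1orf116 had 2.37, padj = 0.00195, KLHDC8A 2.15, padj = 0.0323 and OR2W3, next to TRIM58, 2.40, padj = 0.0371. Mutant libraries were above WT libraries in each of these, and without WT replicate 3 the arm padj of OR2W3 was 0.106. The summed level of the 4 erythroid markers was 32186 to 39138 TPM in WT and 95731 to 122025 TPM in mutant libraries, with none of the 4 at 0, and its part in these values was not tested. At D0 the 6 were H2BC27P, DDR2, SYT11, ACTA1, UBE2T and PHLDA3. DDR2, a collagen receptor, rose from 57.7 ± 2.29 to 106 ± 26.02 CPM (log2 fold change 0.87 ± 0.16, padj = 0.0288), with padj 0.149 without WT replicate 2. The pseudogene H2BC27P was at 0.339 to 1.70 CPM. ACTA1, UBE2T and PHLDA3 were higher than the arm only (arm padj 0.0564, 0.0748 and 0.0803), and without 1 of the 6 libraries these calls were lost in 3, 6 and 5 fits.

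Below the arm at D0 stood H3-7, APOA2, FAM89A, PLXNA2, MIXL1 and ITPKB. PLXNA2, a semaphorin receptor, measured 39.3, 39.2 and 43.5 CPM in WT and 9.69, 14.3 and 13.2 CPM in mutant libraries (log2 fold change −1.71 ± 0.15, padj = 0.00110). MIXL1, a primitive streak transcription factor, measured 17.4, 13.3 and 14.6 against 3.10, 5.66 and 6.09 CPM (log2 fold change −1.60 ± 0.24, padj = 0.0137). FAM89A (−1.89, padj = 0.0107) and the inositol kinase ITPKB (−1.08, padj = 0.0217) fell at D0 and on both later days. The histone gene H3-7 (−2.84, padj = 0.0195) and the lipoprotein gene APOA2 (−2.83, padj = 0.0530) had 1.41 CPM or less in every mutant library. Against the arm, H3-7 was not called without WT replicate 2 (arm padj 0.131), FAM89A without mutant replicate 3 (0.101), ITPKB without 3 of the 6 libraries and APOA2 without 4.

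Below the arm at D16 stood FCER1A, FCGR3B, CHI3L1, COLGALT2, CR1 and SEMA4A. FCER1A, the IgE receptor subunit of mast cells and basophils, measured 8.62, 8.87 and 10.01 CPM in WT and 1.01, 0.822 and 0.994 CPM in mutant libraries (log2 fold change −3.27 ± 0.26, padj = 8.74e-05). CR1, a complement receptor, fell from 1406 ± 538 to 224 ± 75.4 CPM (log2 fold change −2.65 ± 0.33, padj = 0.000625), and the neutrophil receptor FCGR3B had −3.05, padj = 0.00268, with the near-identical FCGR3A beside it. COLGALT2, which glycosylates collagen, had −2.71, padj = 0.000118. The 3 mast cell or eosinophil markers summed to 20724 to 41906 TPM in WT and 4809 to 6823 TPM in mutant libraries at D16, none at 0, and their part was not tested. At D30 CHIT1, a macrophage chitinase, fell from 2851 ± 1683 to 346 ± 83.4 CPM (log2 fold change −3.04 ± 0.43, padj = 0.00508), with MYBPH (−2.21, padj = 0.0120) beside CHI3L1 and CHIT1, the IgM receptor FCMR (−1.81, padj = 0.00995), MTARC1 (−1.78, padj = 0.00850) and H4C15 (−3.38, padj = 0.0732), whose call was lost without any 1 of the 6 libraries. Monocyte markers summed to 3204 to 4820 TPM in WT and 845 to 1878 TPM in mutant libraries at D30.

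ENTREP3 and SLC27A3 were listed at 0 in every mutant library of a day. ENTREP3 had 8.79, 11.4 and 10.1 CPM in WT at D30, which against a floor of 3 counts per library is at least 24.03-fold lower in the mutant. SLC27A3, named after its values were seen, had 25.3, 15.1 and 9.52 CPM in WT at D16, at least 71.7-fold lower. At D0 and D16 ENTREP3 was at −0.36 ± 0.17 and −0.53 ± 0.18. SLC27A3 overlaps INTS3, was listed at 0 in all 6 libraries of D0, and had −1.57, padj = 0.00674 at D30. A value of exactly 0 can be a failed assignment among overlapping transcripts.

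Genes of the arm with known roles in survival, chromatin and blood cells followed it to different degrees. MCL1, the survival factor, measured 1467, 1362 and 1391 CPM in WT and 625, 660.4 and 825 CPM in mutant libraries at D16 (log2 fold change −0.999 ± 0.15, padj = 0.00146), at a distance of −0.51 from the arm (arm padj 0.0377). At D0 MCL1 was at −0.12, padj = 0.589. MDM4, the p53 inhibitor, fell at D16 from 243 ± 31.5 to 163 ± 4.78 CPM (log2 fold change −0.58 ± 0.13, padj = 0.0120) and was at −0.26, padj = 0.192 at D0 (0.0583 with the replicate block) and −0.15, padj = 0.486 at D30. SETDB1, a histone H3 lysine methyltransferase, fell at D16 (−0.71, padj = 0.00201) and D30 (−0.52, padj = 0.0367), as did the RNA editing enzyme ADAR (−0.53, padj = 0.0178 and −0.48, padj = 0.0769). The D30 calls of MCL1, SETDB1 and ADAR were lost when single libraries were left out.

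The next 5 genes were not called against WT at D16. PARP1, a DNA damage sensor, measured 311, 263 and 350.5 CPM in WT and 302, 273 and 316 CPM in mutant libraries at D16, higher than the arm by 0.44 (arm padj 0.0554), and fell at D30 (−0.66, padj = 0.0326). LMNA, a nuclear lamin, was at −0.02 ± 0.14 at D16, and at D30 it rose from 264 ± 7.83 to 390.1 ± 106 CPM (log2 fold change 0.56 ± 0.20, padj = 0.0959), a call lost under 9 alternatives. HNRNPU, a nuclear RNA-binding protein, was at −0.18, −0.19 and −0.11 at D0, D16 and D30, the cell cycle subunit CKS1B at −0.01, −0.13 and −0.44, and the histone variant H3-3A at −0.10, −0.28 and −0.32, none called.

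Both surface markers that define the D16 population lie on 1q. CD34 measured 73.8, 111 and 164 CPM in WT and 125, 144 and 151 CPM in mutant libraries at D16 (log2 fold change 0.27 ± 0.23, padj = 0.444). Without WT replicate 3 its padj was 0.0269. PTPRC, which encodes CD45, measured 706, 799 and 569 against 554, 444 and 398 CPM (log2 fold change −0.57 ± 0.17, padj = 0.0389). PTPRC was lower in every mutant library, whereas CD34 overlapped between genotypes and was higher than the arm (arm padj 0.0461). PTPRC also fell at D30 (−0.79, padj = 0.0676), and its calls on both days were lost when single libraries were left out. IFI16, a DNA sensor, fell at D0 from 2.56 ± 0.654 to 0.872 ± 0.214 CPM (−1.57, padj = 0.0610) and at D30 (−0.93, padj = 0.0320), but at D16 it was at 0.24, padj = 0.326. The D0 call of IFI16 was lost without any 1 of the 6 libraries.

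The members were also counted in 12 functional lists, which hold 360 members among 395 genes and were written with earlier results known. At D16 the lists' medians lay between −0.86 and −0.04 beside the arm's −0.50 and 0.01 over all genes. The shares to read the counts against are 54.99% of all members and 15.3% of all genes lower, and 3.11% and 13.1% higher. Vesicle traffic genes had 27 of 36 lower and 1 higher (median −0.58), among them the calcium pump ATP2B4, the lysosomal regulator LYST, the sorting nexin SNX27 and the secretion factor MIA3. Chromatin and transcription genes had 26 of 40 lower and 1 higher (−0.50), among them ARNT, BCL9 and ZBTB7B. Metabolic enzymes had 23 of 39 lower and 1 higher (−0.46), with UAP1 among them.

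Mitochondrial genes had 16 of 30 lower and 0 higher at D16 (−0.46), led by the pyruvate carrier subunit MPC2. Replication and mitosis genes had 17 of 30 lower and 2 higher (−0.45), proteasome and ubiquitin genes 16 of 25 and 1 (−0.46), apoptosis and signalling genes 17 of 26 and 2 (−0.53), and translation genes 10 of 17 and 0 (−0.49). Splicing and RNA processing genes had 16 of 37 lower and 1 higher (−0.33), with RPRD2 and POLR3GL lower. Extracellular matrix and cytoskeleton genes had 10 of 20 lower and 0 higher (−0.43). In each of these 10 lists the median was below 0 as in the arm.

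The 2 lists of blood genes stood at the ends. For counts against the arm at D16, 13.9% of all members and 11.6% of all genes were higher, and 15.9% and 14.3% lower. Innate and leukocyte genes had 30 of 43 lower and 3 higher at D16 with a median of −0.86, and 18 of them were lower than the arm. CHI3L1, FCER1A, CD244 and the complement inhibitor CD55 led them. Erythroid, platelet and stem cell genes had 9 of 22 lower and 5 higher with a median of −0.04, and 8 were higher than the arm. Within that list CR1 and ATP2B4 fell and SELP rose. Neutrophil markers summed to 1355 to 3754 TPM in WT and 1158 to 1831 TPM in mutant libraries at D16, and the erythroid sums are given above.

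At D30, 29.1% of all members and 9.75% of all genes were lower, and 7.15% and 10.8% higher. The leukocyte list had 23 of 53 lower and 3 higher (median −0.72), led by CHI3L1, ADAM15, CHIT1 and SLAMF7, and the matrix list 11 of 21 lower and 1 higher (−0.65), led by ADAMTSL4, LAMC1 and ECM1. Mitochondrial genes had 11 of 30 lower and 2 higher (−0.54) and mitosis genes 11 of 30 and 0 (−0.53), with the spindle genes ASPM and KIF14 lower. Chromatin genes had 12 of 43 lower and 4 higher (−0.19), proteasome and ubiquitin genes 2 of 24 and 4 (−0.21), and splicing genes 6 of 37 and 3 (−0.20). The other 5 lists, erythroid, metabolic, translation, vesicle and apoptosis genes, had medians from −0.46 to −0.18.

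At D0 the 12 lists had medians from −0.26 to −0.12, with at most 4 members called in any of them. Those 4 were in the list of erythroid, platelet and stem cell genes and were developmental regulators: MIXL1, PROX1, TGFB2 and VANGL2. The call of VANGL2 was lost without any 1 of the 6 libraries, and those of TGFB2 and PROX1 without 4 of them, WT replicate 2 and mutant replicates 1 and 3 among these for both. In the translation and mitochondrial lists none of 17 and 29 members was called, although 15 and 23 were below 0. With the replicate block IARS2, TIPRL and RPS6KC1 passed at D0 (padj 0.0579, 0.0588 and 0.0438).

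Only 6 members were lower at the threshold on all 3 days (1.17%, against 0.127% of other genes tested on all days). They were CHD1L, NBPF14, LPGAT1, ITPKB, TTC13 and FAM89A, named after their values were seen. CHD1L fell by 0.59, 0.69 and 0.98 log2 units at D0, D16 and D30, and LPGAT1 by 0.67, 1.52 and 0.84, with its D0 call lost under the alternatives named above. Of the members tested on all days, 17 (3.33%, against 2.56% of other genes) were lower than the arm on at least 2 days, among them ADAMTSL4, LYST and NIBAN1. A group of 11 members was higher than the arm on one day and lower on another, among them SOAT1, PLXNA2, NES and TRAF5. The same count was not made for other genes, so these 11 have no background to be read against.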

How the data were processed

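Total RNA was rRNA-depleted and sequenced as strand-specific libraries from 3 WT and 3 USB1 mutant samples at each of D0, D16 and D30. The authors trimmed reads with Trimmomatic 0.36 and quantified them with Salmon 0.13.1 against Ensembl GRCh38 transcripts. They deposited 1 table per day with, per gene and library, expected counts (Salmon estimates summed over transcripts), TPM (transcripts scaled by length to a fixed library total) and average transcript lengths. All per-sample columns belonged to the listed samples (0 left over). Whether counting used strand is not given in the sources used here, so overlapping and antisense genes are uncertain, as are near-identical copies such as FCGR3B, CR1, NBPF14, NBPF15, NUDT4B, NUDT4P2 and histone genes. Positions came from the GRCh38 annotation supplied, and arms were split at approximate centromere positions entered by hand. For 117 identifiers, 0.238% of counts, no position was found, and they stayed out.

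The expected counts, rounded, were tested day by day with edgeR 4.0.16 in R 4.3.3 (low-count filter filterByExpr, TMM scaling, quasi-likelihood test, Benjamini-Hochberg adjustment over all genes tested, threshold 0.1, as in the study). The arm-centred test added the median log2 fold change of each gene's arm, for arms with at least 20 genes, to the offsets of the mutant libraries. Genotype-by-day differences came from 1 fit over the 18 libraries. Errors after ± are SE for log2 fold changes and SD for CPM (n = 3). The scripts were tested on simulated data. Alternatives were DESeq2 1.42.0, limma 3.58.1 (voom), other scaling factors, filters, windows and thresholds, deposited lengths as offsets, the replicate block, the 18-library fit and each library left out.

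Same-numbered libraries deviated together at D0 (r = 0.250, 0.145 and 0.190 for numbers 1 to 3) and D16 (0.119, 0.200 and 0.323), so the numbers were taken to pair them there. Counts and padj are nevertheless from the test without this pairing, unless the block is named. The labels do not say what a number marks, nor that replicates were separate cultures, so p-values measure only the spread between these samples. Depth limits the precision of low genes, and counts cover counting error only.

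Genes were named as follows. Per day they were the 4 members lower with the smallest padj and the 4 nearest the arm's median (both from 10 TPM, the latter with SE under 0.15), and up to 6 farthest above and below the arm (from 5 TPM). Further genes were members at or above 0 on every day (from 5 TPM), up to 4 called members per list and day, 13 genes picked for their known roles, and up to 4 per direction for each genotype-by-day difference. Some genes these rules name are not reported here. The members, lists and rules were chosen with earlier results of these data known.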

Additional observations from a re-analysis of the deposited data

Results flagged for a closer look

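The genotype difference of these members changed between days past the threshold of the genotype-by-day test (edgeR's quasi-likelihood test over 18 libraries). Each value is the later log2 fold change minus the earlier one. No cause was tested.

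From D0 to D16 the difference moved down in MCL1 (−0.84), NIBAN1 (−1.37), COLGALT2 (−2.58), SEMA4A (−2.33) and LINC01145 (−1.45). It moved up in IFI16 (1.86), PLXNA2 (1.99), ECM1 (1.77), SOAT1 (1.98), which esterifies cholesterol, and PTPN14 (0.85). Without the libraries numbered 2, the calls of SEMA4A (padj 0.165), LINC01145 (0.208), ECM1 (0.116), SOAT1 (0.140) and PTPN14 (0.356) were lost, and that of SOAT1 also without those numbered 1 (0.173). PLXNA2 went from −1.71 ± 0.15 at D0 to 0.24 ± 0.18 at D16, and SOAT1 from −1.48 ± 0.26 to 0.45 ± 0.22.

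From D0 to D30 it moved down in LAMC1 (−0.99), ADAMTSL4 (−1.94), MTARC1 (−1.58) and ENTREP3 (−9.60, a fitted value that depends on the prior count, since ENTREP3 was listed at 0 in the mutant at D30). It moved up in LMNA (0.71), PLXNA2 (1.90), SLC45A3 (2.00), NUDT4B (2.50) and NUDT4P2 (2.76), the last pair being near-identical copies.

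From D16 to D30 it moved down in PARP1 (−0.64), IFI16 (−1.21), NES (−2.68), PLEKHO1 (−1.66), ECM1 (−1.75) and ENTREP3 (−9.47, with the same limit). It moved up in H2BC26 (0.78), MDM4 (0.38), SLC45A3 (2.75), COLGALT2 (2.89), B4GALT3 (1.98) and the adiponectin receptor ADIPOR1 (1.54). Erythroid marker sums, given in the report, were higher in mutant libraries at both later days, and their part in these changes was not tested.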

How the results depend on the processing

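The median shift of 1q was below 0 on every day under every alternative run. The counts of single genes past the threshold moved more, and the cause was not tested unless fewer libraries or a stricter threshold made it so by construction. At D0 the 49 members called became 18 in the 18-library fit, 20 with transcript lengths as offsets, 22 at an adjusted p under 0.05 and 170 with the replicate block, and the 24 apart from the arm became 13, 13, 14 and 62. With an adjusted p under 0.05, 118 members were apart from the arm at D16, 150 were called and 98 were apart at D30, and 44 had a genotype-by-day difference from D0 to D16 (124 with DESeq2). The median shift by log2 ratio of mean TPM was −0.31, −0.40 and −0.57 at D0, D16 and D30, where the median of all genes was −0.12, 0.12 and −0.26. At D16 it was −0.47 in the 18-library fit and −0.52 from 5 TPM. In 5 Mb windows with at least 5 members the lowest median was −0.36 at D0, −0.67 at D16 and −0.79 at D30, and the highest −0.15 at D16 and 0.021 at D30, above 0 unlike any 10 Mb window. The stretch from 188 to 193 Mb, with fewer members, was at 0.027 at D0 (2 members) and −0.84 at D16 (4).

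With 1 library left out, the members called ranged from 13 to 41 at D0, 283 to 376 at D16 and 105 to 216 at D30, and those apart from the arm from 7 to 26, 90 to 256 and 79 to 142. The median shift ranged from −0.22 to −0.15, −0.51 to −0.49 and −0.35 to −0.23, the last without WT replicate 3. Genotype-by-day counts ranged from 5 to 42 (D0 to D16), 24 to 39 (D0 to D30) and 56 to 141 (D16 to D30) without a replicate number.

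Some uncalled genes turned sign. With 1 library left out, CKS1B ranged from −0.089 to 0.13 at D0 and −0.30 to 0.11 at D16, H3-3A from −0.21 to 0.033 at D0, and H2BC26 from −0.050 to 0.30 at D0 and −0.11 to 0.17 at D16. LMNA ranged from −0.10 to 0.072 and PARP1 from −0.16 to 0.052 at D16, and CD34 from −0.44 to 0.15 at D30. CFHR2 ranged from −0.04 to 0.19 at D0, −0.12 to 0.28 at D16 and −0.25 to 0.34 at D30. H2BC26 at D16 was −0.0005 with TMM factors from outside chromosome 1, LMNA at D16 was 0.018 in the 18-library fit, and MDM4 at D30 was 0.015 with transcript lengths as offsets. Over all alternatives, values of single genes kept direction and side of the threshold 3994 times, lost a call 220 times, gained one 14 times and turned sign 23 times.

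The replicate block gained 6 calls at D0, given in the report, and changed no other call of a named gene. At D30, where same-numbered libraries did not all deviate together (r = 0.147, −0.043 and 0.257 for numbers 1 to 3), it gave 246 members called against 228 and 163 apart from the arm against 156. The library with the lowest total, mutant replicate 3 at D30, limits what can be seen for low members on that day.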
